A study of Mus musculus with 110 samples.

Results

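The 3 Ighv14 segments described here are heavy-chain variable (VH) gene segments of the mouse Igh locus on chromosome 12. They are Ighv14-2-like_115501873, written Ighv14-2-like below and named by its position, Ighv14-2 at 115572761 and Ighv14-1 at 115810681, and they are 3 of the 148 V segments found in the data. Positions are those of the deposited files, which the labels place on a hybrid of mm9 and the Igh sequence AJ851868. A junction was counted as a member's where it lay within 100 bp of its position on chromosome 12. Of 3602400 junctions in 98 libraries, 4313 met this rule, 1008 at Ighv14-2-like, 902 at Ighv14-2 and 2403 at Ighv14-1. The segments had been picked because their share of junctions was high after CTCF was degraded, so their values in that comparison are given as a description.

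Heavy-chain genes are assembled in pro-B cells, where the RAG endonuclease first joins a D segment to a JH segment and then a VH segment to the joined DJH. RAG cuts at a recombination signal, a conserved heptamer and nonamer set apart by a spacer, which follows each VH segment. Cohesin extrudes chromatin past the RAG-bound recombination centre, and CTCF bound along the locus can impede that movement. The VH14 segments form a small family whose members are spread among segments of other families.

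Junctions were mapped by linear-amplification translocation sequencing (LAM-HTGTS) from a bait at JH4, so each read joins JH4 to a prey position. The cell lines were v-Abl transformed pro-B cells, RAG2 deficient and carrying an Eμ-Bcl2 transgene, nucleofected with RAG2 and arrested with the Abl kinase inhibitor STI-571 at 3 µM for 4 days. Each line was studied without and with indole-3-acetic acid (IAA, an auxin) at 500 µM from 6 h earlier, which triggers breakdown of a degron-tagged protein in cells that express the plant receptor Ostir1. The CTCF degron line carries both the CTCF-mAID-GFP tag and Ostir1. The CTCF degron line had 6 replicates per treatment. The parental line, a line with Ostir1 knocked in and a line with CTCF tagged by mAID-GFP had 4 each. The Rad21 degron line, in which a cohesin subunit is degradable, had 3, and its derivative with a deletion of IGCR1, the control region between D and VH segments, had 4. Bone marrow pro-B cells of wild-type 129SV mice had 6 replicates, 5 of them labelled as sorted B220+CD43+IgM- cells, and the protocol text of 3 of them also names STI-571. The libraries are genomic DNA, so no marker transcript could check these cell types. Whether replicates came from separate cultures or animals is not stated, so p-values measure the spread between these samples only.

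Libraries held 609 to 116863 junctions, from 11 sequencing runs. The CTCF degron treatments shared 1 run, whereas bone marrow shared no run with any line, so run and group cannot be told apart in comparisons with bone marrow. Counting identical junctions once left 29.1% of rows in bone marrow, 69.2% in CTCF degron cells with IAA and 24.1% in untreated parental cells. The sources used here name no molecular identifiers, so intervals and limits from counts cover counting error only. The treatment label names no IAA for 4 libraries titled IAA, 3 of them in replicates 4 and 5 of the CTCF degron line. The title was followed.

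The V regions of the members are shown because they are nearly the same and differ in whether they can be read through. Each is the majority sequence of the reads from the first codon to the last base before the recombination signal, 294 bases, with capitals at the 22 bases where the members differ.
Ighv14-2-like: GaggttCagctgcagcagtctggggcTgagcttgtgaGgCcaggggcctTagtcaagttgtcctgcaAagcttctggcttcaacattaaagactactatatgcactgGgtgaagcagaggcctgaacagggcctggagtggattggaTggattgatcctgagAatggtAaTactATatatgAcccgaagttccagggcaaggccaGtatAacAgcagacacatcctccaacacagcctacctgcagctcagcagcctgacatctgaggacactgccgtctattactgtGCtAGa
Ighv14-2: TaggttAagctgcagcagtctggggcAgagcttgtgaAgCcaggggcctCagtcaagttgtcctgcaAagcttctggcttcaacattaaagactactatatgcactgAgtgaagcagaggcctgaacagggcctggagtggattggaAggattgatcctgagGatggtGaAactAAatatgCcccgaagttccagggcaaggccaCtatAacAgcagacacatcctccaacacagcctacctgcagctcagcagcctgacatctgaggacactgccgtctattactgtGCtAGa
Ighv14-1: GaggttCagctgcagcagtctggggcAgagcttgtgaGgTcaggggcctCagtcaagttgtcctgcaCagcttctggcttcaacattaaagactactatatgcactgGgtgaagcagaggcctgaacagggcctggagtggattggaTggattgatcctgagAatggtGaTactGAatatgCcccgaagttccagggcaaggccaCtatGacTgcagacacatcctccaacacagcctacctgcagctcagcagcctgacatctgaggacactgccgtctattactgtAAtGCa
Ighv14-2-like and Ighv14-2 differed at 13 bases (95.6% identity), Ighv14-2-like and Ighv14-1 at 15 (94.9%) and Ighv14-2 and Ighv14-1 at 16 (94.6%). Of reads aligned without gaps, 943 of 945 at Ighv14-2-like, 833 of 835 at Ighv14-2 and 2274 of 2275 at Ighv14-1 were closest to their own segment among the 4 VH14 sequences. The median read covered 178, 191 and 153 bases of the V region.

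Ighv14-2 carried stop codons at codons 1 and 36 of the V region. They are shown with the same stretch of the other members, with the codon in capitals.
Ighv14-2, codon 1: gtcaattcaTAGgttaagctg
Ighv14-2-like, codon 1: gtcaattcaGAGgttcagctg
Ighv14-1, codon 1: atcaattcaGAGgttcagctg
Ighv14-2, codon 36: tatatgcacTGAgtgaagcag
Ighv14-2-like, codon 36: tatatgcacTGGgtgaagcag
Ighv14-1, codon 36: tatatgcacTGGgtgaagcag
The changes from Ighv14-2-like to Ighv14-2 are G1T and G108A, counted from 1 at the first base of the V region. The TAG of codon 1 was read 94 times and the TGA of codon 36 was read 447 times, with each letter present in at least 98.9% and 98.4% of those reads. Both were present in each main source of reads. Codon 1 was read 10 times in CTCF degron cells with IAA, each letter in 100% of reads, and 74 times in bone marrow, each in at least 98.6%. Codon 36 was read 115 times in CTCF degron cells with IAA and 291 times in bone marrow, with at least 96.4% and 98.3% of reads showing each letter. Neither Ighv14-2-like nor Ighv14-1 had a stop codon in the V region.

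The recombination signals were read from minus-orientation reads that run from the V end into the flank, 18 at Ighv14-2-like, 19 at Ighv14-2 and 11 at Ighv14-1. They are shown because they are the sites that RAG cuts, with the heptamer and nonamer in capitals around a spacer of 23 bases.
Ighv14-2-like: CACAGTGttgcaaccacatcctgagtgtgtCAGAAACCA
Ighv14-2: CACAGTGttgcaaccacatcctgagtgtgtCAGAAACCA
Ighv14-1: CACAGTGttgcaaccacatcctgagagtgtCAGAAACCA
The signals of Ighv14-2-like and Ighv14-2 were identical, and that of Ighv14-1 differed from them in the spacer. Of 112 V segments annotated in mm9, 78 (69.6%) have the heptamer CACAGTG within 20 bases after the V on the coding strand, and 5 (4.46%) have CAGAAACCA after a further 23 bases. The V ends also differed. The last 15 bases, with the conserved cysteine codon in capitals, were the same in Ighv14-2-like and Ighv14-2 and different in Ighv14-1 after that codon.
Ighv14-2-like and Ighv14-2: tattacTGTgctaga
Ighv14-1: tattacTGTaatgca

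The names fit the mm9 annotation unevenly. Ighv14-2 matched mm9 Ighv14-2 (chromosome 12, 115232680 to 115232973, minus strand) at 98.0% and Ighv14-1 matched mm9 Ighv14-1 (115170164 to 115170457) at 98.3%. Ighv14-2-like was about as close to every mm9 family member, at 95.9% to Ighv14-4 (115414649 to 115414942), 95.6% to Ighv14-2 and 95.2% to each of Ighv14-1 and Ighv14-3. Its name is therefore not settled by sequence. Ighv14-1 lay between Ighv7-3 and Ighv3-3, where the mm9 annotation has Ighv14-4, and was 96.9% identical to that segment. Both mm9 Ighv14-1 and mm9 Ighv14-4 have CACAGTC directly after the V, where the Ighv14-1 read here had CACAGTG. A VH14 segment outside the rule, Ighv14-3 at 115635402, was 96.6%, 96.3% and 94.9% identical to the members in the order above and is given beside them below.

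In CTCF degron cells with IAA all 3 segments were used in every replicate. The share of all junctions at Ighv14-2-like was 0.248, 0.210, 0.239, 0.201, 0.177 and 0.253% in replicates 1 to 6, a mean of 0.221% ± 0.0303 (SD, n = 6). Ighv14-2 had 0.151, 0.161, 0.203, 0.147, 0.177 and 0.200%, a mean of 0.173% ± 0.0246 (SD, n = 6). Ighv14-1 had 0.394, 0.658, 0.630, 0.479, 0.616 and 0.595%, a mean of 0.562% ± 0.103 (SD, n = 6). Ighv14-1 was thus the most used member in each of the 6 replicates, and its lowest replicate exceeded the highest replicate of either other member. Summed, the members held 0.956% ± 0.119 of all junctions and 3.48% ± 0.549 of junctions in the VH region (SD, n = 6; positions 114829805 to 117639092). By mean share Ighv14-1 ranked 10th, Ighv14-2-like 22nd and Ighv14-2 27th of 148 V segments. The 2 replicates with a library whose treatment label leaves IAA out, at 0.826 and 0.970% for the summed members, lay between the lowest, 0.792%, and the highest, 1.07%, of the other replicates.

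Untreated CTCF degron cells, sequenced in the same run, used the members in 110 of 263632 junctions. Ighv14-2-like had a mean share of 0.00727% ± 0.00592, Ighv14-2 of 0.00508% ± 0.00353 and Ighv14-1 of 0.0287% ± 0.0187 (SD, n = 6 each), from 19, 15 and 76 junctions. Replicate 3 had no junction at Ighv14-2, and replicate 5 held 10 of the 19 at Ighv14-2-like. The mean shares with IAA were 30.5, 34.1 and 19.6 times those without, and 23.3 times for the summed members. The replicates with and without IAA did not overlap for any member, which was so for 45.9% of the 148 V segments. On the log2 scale of the limma fit, which held V and D segments, the changes were 4.98 (SE 0.43), 4.97 (SE 0.43) and 4.39 (SE 0.36). They ranked 3, 4 and 7 of 70 segments, whose median change was 2.76 and of which 88.6% passed the test. With median-of-ratios scaling the median was 0.66 and the members' changes were 2.84, 2.83 and 2.26, in the same direction.

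Much of the VH region was used more with IAA, and the share among VH junctions gives the members relative to it. Here the mean shares were 0.801% with IAA and 0.176% without at Ighv14-2-like, 0.624 and 0.136% at Ighv14-2, and 2.06 and 0.729% at Ighv14-1. The ratios were 4.54, 4.59 and 2.82, and 3.34 for the summed members. Replicates did not overlap for Ighv14-2-like and Ighv14-2 and did overlap for Ighv14-1, whose untreated replicates reached 1.54% of VH junctions. A rise with no overlap in the share of VH junctions occurred in 6.76% of V segments. The rule used this contrast, so neither count is evidence for the members. Ighv14-3, with 0.115% ± 0.0239 of all junctions with IAA and 0.0108% ± 0.00881 without (SD, n = 6 each), had ratios of 10.7 of all junctions and 1.62 of VH junctions.

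Untreated parental cells had 14 member junctions among 488632. Ighv14-2-like was seen in 1 of 4 replicates (2 junctions), Ighv14-2 in 3 (4 junctions) and Ighv14-1 in 2 (8 junctions). Against these, with junctions pooled over replicates, the share in CTCF degron cells with IAA was 537 times as high at Ighv14-2-like (counting interval 149 to 4436), 215 times at Ighv14-2 (83.9 to 788) and 350 times at Ighv14-1 (178 to 811). The parental shares rest on few junctions, and ratios of mean shares moved with single parental replicates. At Ighv14-2 that ratio was 98.5, and 393 without replicate 1, which held 1 junction of 17607. At Ighv14-1 it was 641, and 1313 without replicate 4. No member overlapped between these groups, as was so for 62.8% of V segments of all junctions and 44.6% of VH junctions. The log2 changes were 7.48, 6.42 and 7.90, ranks 5, 11 and 1 of 71 segments whose median was 4.91 and of which 91.5% passed. These groups shared no sequencing run. Bone marrow, described next, had pooled shares 379 times the parental ones at Ighv14-2-like (counting interval 105 to 3131), 174 times at Ighv14-2 (68.1 to 640) and 192 times at Ighv14-1 (97.6 to 445). Its ratios of mean shares were 74.4 at Ighv14-2, 297 without parental replicate 1, and 340 at Ighv14-1, 697 without parental replicate 4. No member overlapped, as for 90.5% of V segments of all junctions and 79.7% of VH junctions.

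**Figure D1:**
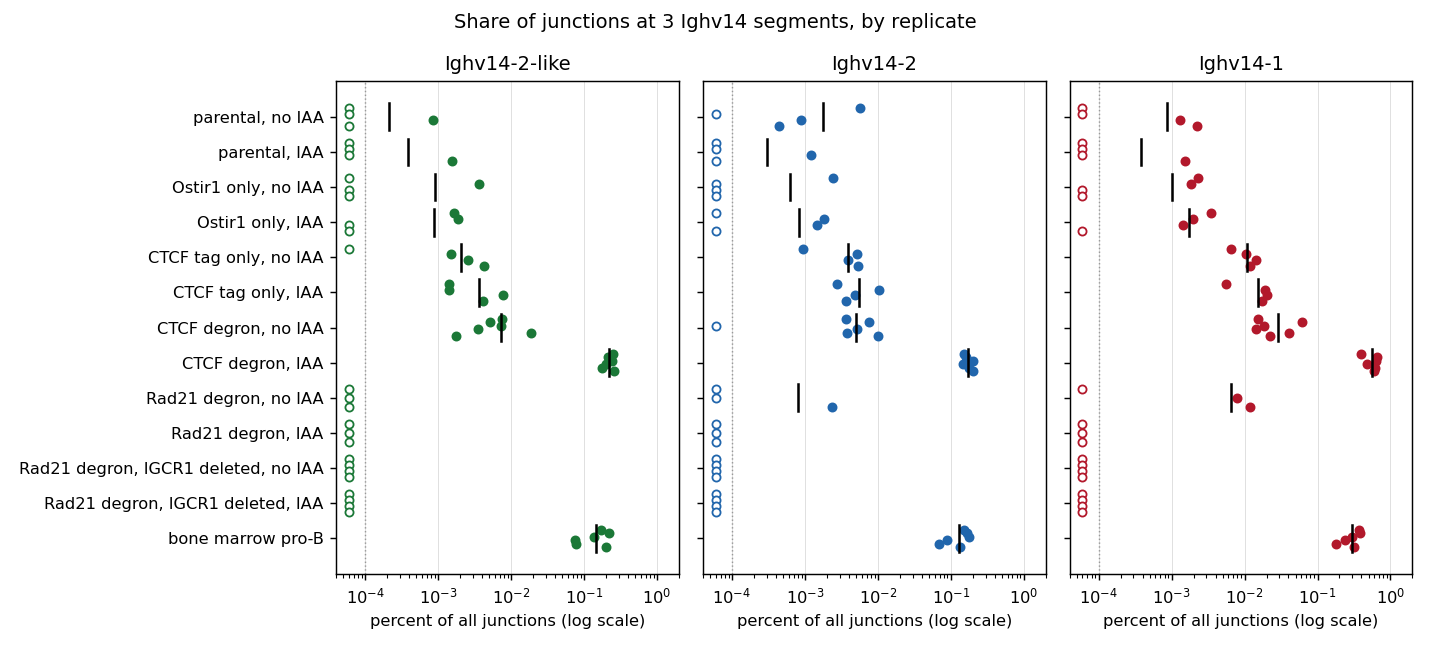
Percent of all junctions (log axis) at each of the 3 Ighv14 segments in the 13 groups; filled points are replicates, open points left of the dotted line are replicates with 0 junctions, and black ticks are group means. CTCF degron cells with IAA and bone marrow pro-B cells hold the high values of each segment, with Ighv14-1 means of 0.562% and 0.298%, while the untreated CTCF-tag-only and CTCF degron cells have Ighv14-1 means of 0.0108% and 0.0287%.

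Bone marrow pro-B cells used all 3 members in every replicate. The share of all junctions at Ighv14-2-like ran from 0.0760 to 0.217% over 6 replicates with a median of 0.153%, that at Ighv14-2 from 0.0698 to 0.176% with a median of 0.141%, and that at Ighv14-1 from 0.179 to 0.381% with a median of 0.308%. The summed members held 0.576% ± 0.174 of all junctions and 1.83% ± 0.288 of VH junctions (SD, n = 6). Replicates 1 to 3, from 1 run, had summed shares of 0.698, 0.768 and 0.610%, and replicates 4 to 6, from another, had 0.401, 0.326 and 0.652%. The deposited lists mark 67957 of 79561, 47910 of 57972 and 78541 of 89909 rows of replicates 1 to 3 as duplicates. They mark 0 rows of replicates 4 to 6, and marked rows were counted like the others. The members ranked 64th, 70th and 31st of 148 V segments.

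Within bone marrow replicates the order of the members could be tested, since the rule did not use it. Ighv14-1 exceeded Ighv14-2-like by 0.152 percentage points and Ighv14-2 by 0.167 points, in 6 of 6 replicates each (two-sided exact sign-flip permutation test, p = 0.03125, the lowest value the design allows, and 0.0469 after Benjamini-Hochberg adjustment over 6 pairs). Ighv14-2-like and Ighv14-2 did not differ beyond their spread, at 0.147% ± 0.0614 and 0.131% ± 0.0434 (SD, n = 6 each, a difference of 0.0157 points in 4 of 6; by exact permutation p = 0.375). Ighv14-3 was the most used of the 4 by mean, at 0.415% ± 0.179 (SD, n = 6), above Ighv14-2-like and Ighv14-2 in 6 of 6 replicates (exact permutation p = 0.03125 each; Benjamini-Hochberg 0.0469). It was above Ighv14-1 in 5 of 6 (exact permutation p = 0.0938, Benjamini-Hochberg 0.113). With any 1 replicate left out the smallest possible p would exceed 0.05, so the calls that passed here rest on all 6 replicates. Of the members' junctions Ighv14-2-like, Ighv14-2 and Ighv14-1 made up 25.3, 23.3 and 51.4% in bone marrow and 22.7, 18.1 and 59.2% in CTCF degron cells with IAA.

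Compared with lines that the rule did not use, bone marrow had more member junctions. The summed share exceeded that of untreated Ostir1-only cells, 0.00255% ± 0.00296 (SD, n = 4), by 0.573 points of all junctions and 1.77 points of VH junctions. It exceeded that of untreated CTCF-tag-only cells, 0.0167% ± 0.00650 (SD, n = 4), by 0.559 and 1.36 points. Each difference had an exact permutation p = 0.00952, the smallest possible, with a Benjamini-Hochberg value of 0.0381 for all junctions (over 8 comparisons) and 0.0333 for VH junctions. With any 1 replicate left out the smallest possible p is larger, and the adjusted values by the exact permutation test were 0.0556 to 0.0952 over both shares, so the call then ended. The groups did not overlap for any member, which held for 90.5% and 89.9% of V segments in the share of all junctions and for 83.1% and 48.6% in that of VH junctions. By limma the log2 changes against Ostir1-only cells were 6.93 (SE 0.55), 7.03 (SE 0.50) and 7.77 (SE 0.49), with 98.6% of 143 segments past the threshold and a median of 5.91. Against CTCF-tag-only cells they were 6.29 (SE 0.59), 5.17 (SE 0.52) and 4.80 (SE 0.43), with 100% past the threshold and a median of 4.52. The members passed the filter on low counts through their bone marrow junctions, so these changes are a description and carry no p. Median-of-ratios scaling moved these medians to 4.07 and 0.94 and left every member higher, by 5.11, 5.20 and 5.93 and by 2.89, 1.75 and 1.39.

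The 2 groups with frequent use of the members were also set side by side, as a description. The mean share in CTCF degron cells with IAA was 1.51 times that in bone marrow at Ighv14-2-like, 1.32 times at Ighv14-2 and 1.88 times at Ighv14-1. Of these only Ighv14-1 had replicates that did not overlap, 0.394 to 0.658% against 0.179 to 0.381%, a pattern found in 7.43% of V segments. Of VH junctions Ighv14-2-like and Ighv14-1 did not overlap, and 10.1% of V segments were higher in this way. Ighv14-3 stood the other way, at 0.276 times its share in bone marrow. In the limma fit the members' log2 changes were 0.68, 0.44 and 0.90, ranks 22, 25 and 17 of 142 segments with a median of −1.58, and Ighv14-3 was at −1.82. The fit passed 85.2% of segments. With identical junctions counted once the difference of the summed shares was 0.660 points, against 0.381 with every row. Libraries lettered a and b of CTCF degron cells with IAA differed, with summed shares of 1.11% ± 0.143 and 0.806% ± 0.119 (SD, n = 6 each). Ighv14-2-like had 0.253 and 0.190%, Ighv14-2 0.215 and 0.132% and Ighv14-1 0.639 and 0.484%. Bone marrow libraries, which carry no letter, had mean shares of 0.147, 0.131 and 0.298%.

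The nearest V segments on each side of the members were set beside them in these groups. Next to Ighv14-2-like, Ighv7-1 lay 31727 bp toward the D segments with 0.0196% of junctions in CTCF degron cells with IAA and 0.567% in bone marrow, and Ighv4-1 lay 21825 bp on the far side with 0.0238 and 0.268%. Next to Ighv14-2, Ighv11-2 at 12311 bp had 0.0313 and 0.116%. A further copy of Ighv4-1 at 16068 bp on the far side had 2 junctions in CTCF degron cells with IAA, 0.00125%, and 779 junctions in bone marrow, 0.204%. Next to Ighv14-1, Ighv7-3 at 22557 bp had 0.109 and 0.334%, while Ighv3-3 at 37760 bp on the far side had 0.0581 and 0.0394%. As ratios of the CTCF degron value to the bone marrow value, these 6 neighbours ran from 0.00609 to 1.48, against 1.32 to 1.88 for the members. The ratio was below 1 at 5 of the 6 neighbours and at 120 of all 148 V segments (81.1%), whose median was 0.316. The members were chosen on the first group, so these ratios carry no test.

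**Figure D2:**
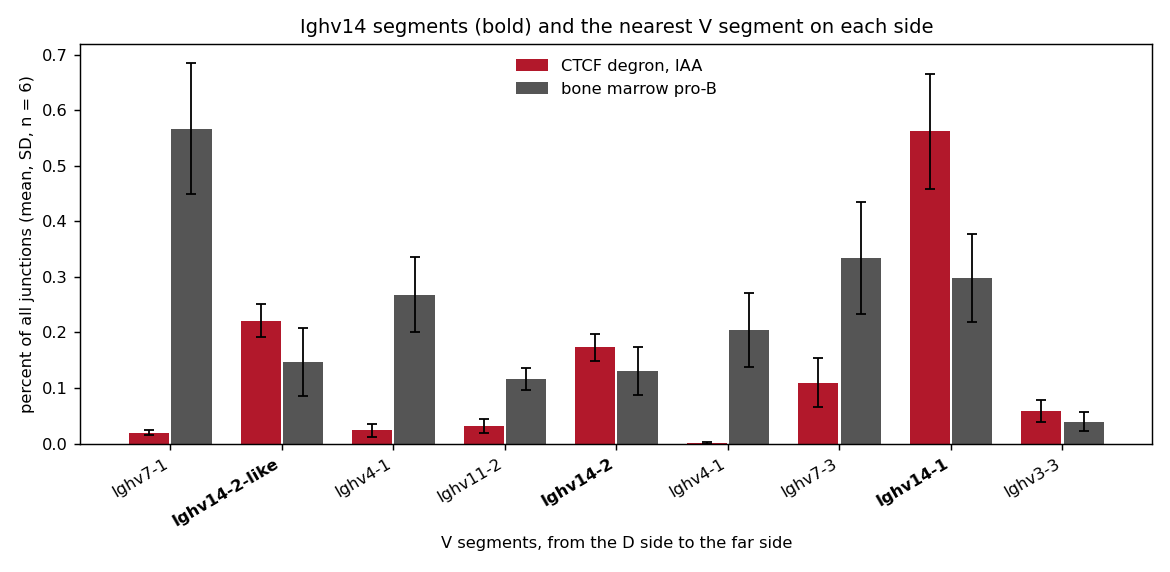
Mean percent of all junctions (bars from 0; error bars SD, n = 6) at the 3 Ighv14 segments, in bold, and at the nearest V segment on each side, in CTCF degron cells with IAA and in bone marrow pro-B cells. Of the neighbours only Ighv3-3 has the higher bar in CTCF degron cells, whereas each Ighv14 segment does; Ighv7-1 reaches 0.567% in bone marrow and 0.0196% in CTCF degron cells.

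Over the 13 groups the patterns of use of the members followed each other closely. Pearson's r of log2(mean percent of all junctions + 0.001) was 0.98 between Ighv14-2-like and Ighv14-2, 0.95 between Ighv14-2-like and Ighv14-1 and 0.97 between Ighv14-2 and Ighv14-1. Outside the members, the V segments most like their summed pattern were Ighv8-13 at 116090723 (r = 0.989), Ighv1-31 at 116433049 (r = 0.985) and Ighv1-5 at 116141763 (r = 0.984). With the same sum Ighv14-1 had r = 0.995, Ighv14-2 0.974 and Ighv14-2-like 0.955, so such likeness was not particular to the members. Ighv14-3 had r of 0.94 with Ighv14-2-like, 0.97 with Ighv14-2 and 0.95 with Ighv14-1. The groups share the bait, the total used as denominator and the spread of total VH use, and 3 groups had no member junction, so these are descriptions over 13 means.

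The parental, Ostir1-only and CTCF-tag-only lines used the members rarely. Ostir1-only cells had 5 member junctions without IAA and 8 with it, and parental cells 14 and 8. CTCF-tag-only cells had 99 and 153 member junctions, and untreated CTCF degron cells had 110. At Ighv14-1 the shares in untreated CTCF-tag-only cells were 0.00651, 0.0105, 0.0144 and 0.0119% in replicates 1 to 4. Untreated Ostir1-only cells had 0.00228, 0.00183, 0 and 0%, and untreated parental cells had 0, 0, 0.00128 and 0.00222%. The tagged line did not overlap with either. In a test chosen after these values were seen, the tagged line was higher at Ighv14-1 than Ostir1-only cells by 0.00979 points. The exact permutation p was 0.0286, the smallest possible. The Benjamini-Hochberg value was 0.0571 over 8 tests that included the parental comparisons, so the difference did not pass. Against parental cells Ighv14-1 was higher by 0.00994 points. This is a description, since untreated parental cells took part in the choice of the members. Replicates of the tagged line lay above all Ostir1-only replicates for 25.4% of V segments and above all parental replicates for 23% of them. In the share of VH junctions Ighv14-1 did not overlap either, as for 28.3 and 27.3% of V segments. Ighv14-2-like and Ighv14-2 overlapped with both lines, with exact permutation p = 0.371 and 0.0571 against Ostir1-only cells. The tagged line came from 1 run, which also held parental replicates 1 and 2. These had 1 member junction of 17607 and 0 of 14866, shares of 0.00571 and 0%, against 0.00744 to 0.0215% for the tagged replicates.

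Untreated CTCF degron cells, which carry the same tag together with Ostir1, had pooled shares 17.6 times the parental ones at both Ighv14-2-like (counting interval 4.87 to 145) and Ighv14-1 (8.94 to 40.8), and 6.95 times at Ighv14-2 (2.71 to 25.5). The ratio of mean shares at Ighv14-2 was 2.89, and 11.5 without parental replicate 1. At Ighv14-1 it was 32.7, and 67.0 without parental replicate 4. Ighv14-1 and Ighv14-2-like did not overlap with parental cells and Ighv14-2 did, where 25.7% of V segments were higher with no overlap in either share. No member passed the filter of the segment fit, which called 61.8% of 34 segments here. These ratios share the parental and CTCF degron samples of the comparisons above and were not tested. With identical junctions counted once the difference of the summed shares was 0.0785 points, against 0.0382 with every row.

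No change of the members with IAA passed the test in the Ostir1-only or the CTCF-tag-only line. The summed share in parental cells was 0.00108% ± 0.00146 in treated and 0.00285% ± 0.00234 in untreated replicates (SD, n = 4 each). These values, from 8 and 14 junctions, are a description, since untreated parental cells took part in the choice of the members. In Ostir1-only cells the summed share was 0.00344% ± 0.00260 and 0.00255% ± 0.00296 (SD, n = 4 each), with an exact permutation p of 0.657 and an adjusted value of 0.751. As pairs of same-numbered replicates it was higher with IAA in 3 of 4 (exact sign-flip p = 0.25). In CTCF-tag-only cells it was 0.0246% ± 0.0105 and 0.0167% ± 0.00650 (SD, n = 4 each), with an exact permutation p of 0.229 and an adjusted value of 0.533. Same-numbered replicates of the tagged line deviated together, and as pairs the share was higher with IAA in 4 of 4 (exact sign-flip p = 0.125, the smallest possible). Members passed the filter of the segment fit only in the tagged line, where Ighv14-1 had a log2 change of 0.36 (SE 0.56, limma adjusted p = 0.999575). That fit called 0% of 74 segments by limma, 4 at an unadjusted p under 0.05, and 13 with the replicate block. The corresponding shares of segments called were 28.1% in parental and 4.35% in Ostir1-only cells, where no member was tested.

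In the lines with a degradable Rad21 few or no member junctions were found. Untreated Rad21 degron cells had 1 junction at Ighv14-2, 7 at Ighv14-1 and 0 at Ighv14-2-like among 113444, a summed share of 0, 0.00789 and 0.0143% in the 3 replicates. With IAA there was no member junction among 5566, but only 5 of these lay in the VH region, so a count of 0 allows up to 0.0539% of all junctions. The difference had an exact permutation p = 0.4, where the smallest possible is 0.1. With IGCR1 deleted and no IAA, 24616 of 48627 junctions lay in the VH region and none at a member, which allows up to 0.0122% of VH junctions. The undeleted line had 8 member junctions among 2136 in the VH region, a mean of 0.394% ± 0.384 (SD, n = 3) with replicates from 0 to 0.768%. The difference did not pass (exact permutation p = 0.286, with a smallest possible of 0.0571; Benjamini-Hochberg 0.5). The IGCR1-deleted line with IAA had 0 member junctions among 8434, of which 511 lay in the VH region, allowing up to 0.587% of VH junctions. No member passed the filter of the segment fit in these comparisons, which called 63.2% of 19 segments with IAA in the Rad21 degron line, 85% of 20 between the untreated lines and 50% of 18 with IAA in the deleted line.

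The reads also show how each member was joined, which the rule did not use. A joint can code for a heavy chain only where V and JH are in the same reading frame and no stop codon intervenes. The frame between the V cysteine codon and JH4 could be read in 4064 of 4260 plus-orientation member junctions. In CTCF degron cells with IAA the summed members were in frame in 31.4, 34.9, 34.2, 30.2, 35.5 and 32.3% of junctions in replicates 1 to 6, and in bone marrow in 61.2, 45.6, 44.9, 54.0, 47.9 and 56.5%. The groups did not overlap, and their means of 33.1% ± 2.10 and 51.7% ± 6.60 (SD, n = 6 each) differed by 18.6 points (exact permutation p = 0.00216, the lowest value the design allows, and 0.0167 after Benjamini-Hochberg adjustment over 54 tests of junction features). In frame with no stop between the cysteine codon and JH4 were 25.7% ± 2.44 and 44.1% ± 7.50 (exact permutation p = 0.00216, Benjamini-Hochberg 0.0167). The cysteine codon was found in 116 of 148 V segments, and junctions at the rest gave no frame. Other V segments with the codon had 33.4% ± 0.530 in frame in CTCF degron cells with IAA and 49.8% ± 3.71 in bone marrow (SD, n = 6 each). The members were higher in 3 of 6 replicates of each group (exact sign-flip p = 0.688 and 0.531).

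Ighv14-2-like was in frame in 55.6% ± 20.1 and Ighv14-1 in 53.9% ± 15.6 of junctions, and Ighv14-2, the member with stop codons, in 44.7% ± 11.1 (SD, n = 6 each). Against CTCF degron cells with IAA, at 34.2, 32.4 and 33.1%, the Benjamini-Hochberg values were 0.0531, 0.0623 and 0.125 (exact permutation tests), so no single member passed. With identical junctions counted once Ighv14-2-like did, at a difference of 21.3 points. In frame without a stop, Ighv14-2-like passed, at 52.5% against 25.7% (exact permutation p = 0.00216, Benjamini-Hochberg 0.0167). Ighv14-1 had 46.5% against 25.3% (exact permutation, Benjamini-Hochberg 0.0623) and Ighv14-2 31.7% against 26.3% (exact permutation, Benjamini-Hochberg 0.412), a difference that was −1.56 points with identical junctions counted once. Repeated junctions weigh on these values. With identical junctions counted once and replicates pooled, 55 of 156 junctions at Ighv14-2 were in frame in bone marrow, 35.3% (exact 95% interval 27.8 to 43.3%). The share was 54.3% (46.3 to 62.1%) at Ighv14-2-like, 59.4% (53.9 to 64.7%) at Ighv14-1, 63.1% at Ighv14-3 and 50.8% at other V segments with the cysteine codon. In CTCF degron cells with IAA the same shares were 32.1, 34.9, 33.8, 30.8 and 33.4%.

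Ighv14-2 was then set against the other members within each replicate, a comparison chosen after these values were seen. With identical junctions counted once it was in frame in 36.6% ± 4.97 of bone marrow junctions and the other members in 55.6% ± 6.75 (SD, n = 6 each), lower in 6 of 6 replicates (exact sign-flip p = 0.03125, the lowest value the design allows, and 0.125 after Benjamini-Hochberg adjustment over 8 tests). In frame without a stop it had 24.8% against 48.4%, also lower in 6 of 6 (exact sign-flip p = 0.03125, Benjamini-Hochberg 0.125). With every row counted the difference was −9.35 points, lower in 5 of 6 (exact sign-flip p = 0.156). In CTCF degron cells with IAA the difference was −0.21 points with identical junctions counted once (exact sign-flip p = 1).

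**Figure D3:**
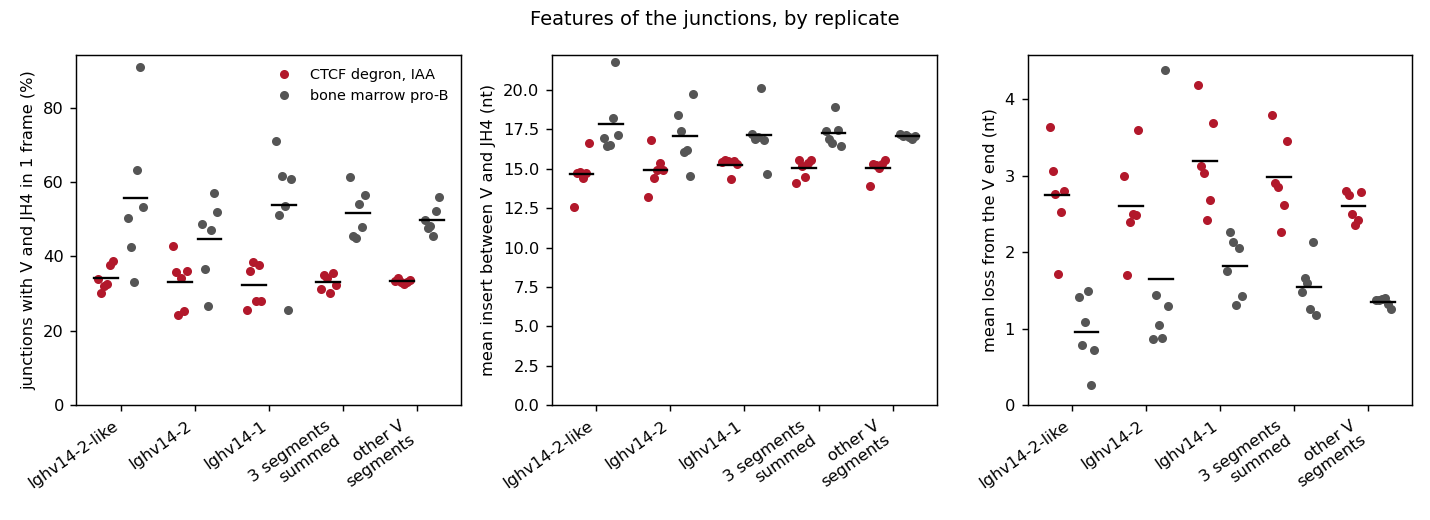
Junction features by replicate in CTCF degron cells with IAA and in bone marrow pro-B cells, for each Ighv14 segment, the 3 summed and all other V segments: percent of junctions with V and JH4 in 1 frame, mean insert between V and JH4 in nucleotides and mean loss from the V end in nucleotides; points are replicates and black lines are means. For the summed segments the groups do not overlap in frame (33.1% and 51.7%), insert (15.0 and 17.3 nt) or V end loss (2.98 and 1.55 nt), and single segments scatter more.

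Joints of the members had longer inserts and lost less of the V end in bone marrow. The insert between the V and the JH4 bait sequence, which holds the D segment and added bases, averaged 17.3 nt ± 0.900 in bone marrow and 15.0 nt ± 0.610 in CTCF degron cells with IAA (SD, n = 6 each; 0.0167 after adjustment of an exact permutation p of 0.00216). The V end had lost 1.55 nt ± 0.342 and 2.98 nt ± 0.557 on average (exact permutation p = 0.00216, Benjamini-Hochberg 0.0167). All other V segments had inserts of 17.1 and 15.1 nt and losses of 1.35 and 2.60 nt in the same groups. The loss was smaller in bone marrow at Ighv14-2-like (0.960 against 2.75 nt) and Ighv14-1 (1.83 against 3.19 nt; exact permutation, Benjamini-Hochberg 0.0167 each), and at Ighv14-2 it was 1.65 against 2.61 nt (exact permutation, Benjamini-Hochberg 0.248). Ighv14-1, whose last bases differ from those of the other members, kept its full V end in 306 of 1021 junctions in CTCF degron cells with IAA, pooled over replicates, against 42.9% of 392 at Ighv14-2-like and 44.7% of 313 at Ighv14-2. In bone marrow these pooled shares were 35.3, 60.7 and 56.1%. A loss of 1 base was found at 225 of the Ighv14-1 junctions, 13.5% of Ighv14-2-like junctions and 8.63% of Ighv14-2 junctions in CTCF degron cells with IAA. The summed members kept the full V end less often than other V segments of the same replicates in 6 of 6 replicates of both groups, at 35.9% against 44.9% and 46.7% against 56.8%, without passing the correction (exact sign-flip p = 0.03125 each, Benjamini-Hochberg 0.0844).

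The D segments in the joints were named from runs of at least 8 letters shared with an mm9 D segment. The Ighd2 family was found in 38.7% ± 5.90 of member junctions in bone marrow and 31.2% ± 3.79 in CTCF degron cells with IAA (SD, n = 6 each; 0.0623 after adjustment of the exact permutation test), and with identical junctions counted once the difference of 6.06 points passed. The Ighd1 family was found in 21.8% ± 6.52 and 27.6% ± 3.07 (exact permutation, Benjamini-Hochberg 0.146). Ighd4, the D segment nearest JH, was found in 0.658% ± 0.562 and 2.16% ± 1.07 (exact permutation, Benjamini-Hochberg 0.0531). Ighd4 was rarer in the summed member junctions than in junctions of other V segments in 6 of 6 replicates of both groups, at 0.658% against 1.57% and 2.16% against 3.52%. Neither difference passed the correction (exact sign-flip p = 0.03125 each, Benjamini-Hochberg 0.0844). Ighv14-2-like, Ighv14-2 and Ighv14-1 had 0.300, 0.990 and 0.645% in bone marrow and 1.84, 3.65 and 1.88% in CTCF degron cells with IAA. Ighv14-2 was thus not below other V segments in the latter. No D match was found in 35.8% and 37.2% of member junctions.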

How the data were processed

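LAM-HTGTS libraries from a JH4 bait were analysed in 98 junction lists, and 12 off-target lists were not used here. The deposited lists hold 1 line per junction read (a unit without a scale of its own, neither counts per feature nor normalized). Per the labels' protocols, the authors aligned reads to a hybrid of mm9 and AJ851868, and Bowtie2 is named per the submitters' processing notes with no version. Repeated junctions are kept in the deposited lists. A duplicate mark in the lists, set only in bone marrow replicates 1 to 3, was not used. Replicates had 1 or 2 libraries, lettered a and b with no stated meaning. Positions differed by 3 bp in opposite directions between the letters and were brought together, and a replicate's share is the mean over its libraries.

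Shares are percent of all junctions or of VH junctions. Single values were compared by two-sided exact permutation tests over replicates, with Benjamini-Hochberg adjustment. All V and D segments with a mean of at least 10 junctions per replicate were fitted with limma (version 3.58.1 in R 4.3.3, voom, offset 0.5, threshold 0.05 after adjustment), which was tested on simulated data. Ranks, medians and shares of segments called in this fit cover both kinds of segment. Comparisons that chose the members, and others with untreated parental cells, carry no p. The Benjamini-Hochberg adjustments of shares were run with the parental comparisons included. Segments were named with blastn 2.17.0 against mm9, and scripts used Python 3.11.15 with pandas 2.3.3, numpy 2.4.6, scipy 1.17.1 and matplotlib 3.10.9. Sequences are majority letters of reads. Intervals on proportions are exact Clopper-Pearson at 95%. Counting intervals on ratios are exact Poisson intervals at 95% on the parental count alone, with the count of the other group taken as fixed. The limit for a count of 0 is 3 junctions.

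The members and lists were chosen with earlier results of these data known. The text names the 3 members, the nearest V segment on each side of each, and the 3 others most alike over 13 groups. Ighv14-3 was added as the remaining VH14 segment. Same-numbered replicates deviated together in the Ostir1-only (r 0.715 to 0.915) and CTCF-tag-only lines (r 0.506 to 0.884), so these numbers were taken as pairs from the data, not from the labels. In the other lines they were not. Alternatives were the window, scaling, filter, identical junctions once, single letters, runs, the replicate block and leaving out each replicate.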

Additional observations from a re-analysis of the deposited data

Results flagged for a closer look

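Within groups of 4 to 10 replicates, 36 sets of shares were examined, those of the 3 members and of their sum in 9 groups. A replicate lay far from the rest by Dixon's test in 8 of them, all sets of single members. By chance the test picks out about 1 in 20 groups. In 6 of the 8 sets a single replicate held any junction and the others were at 0. For Ighv14-2-like these were parental cells without IAA, replicate 3 (0.000856%), parental cells with IAA, replicate 4 (0.00155%), and untreated Ostir1-only cells, replicate 2 (0.00364%). For Ighv14-2 they were parental cells with IAA, replicate 3 (0.00121%), and untreated Ostir1-only cells, replicate 1 (0.00246%). For Ighv14-1 it was parental cells with IAA, replicate 4 (0.00155%). Replicate 1 of untreated parental cells was high at Ighv14-2 (0.00571%, next 0.000876%), from 1 junction in a shallow replicate of 17607. Replicate 5 of untreated CTCF degron cells was high at Ighv14-2-like (0.0185%, next 0.00759%).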

How the results depend on the processing

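Shares of all junctions and of VH junctions in the tested comparisons kept their direction under every alternative run. In parental cells, given as a description, the direction turned with the a libraries alone. There IAA minus no IAA was 4.50e-05 points of all and 0.00304 points of VH junctions. The Rad21 degron difference within run 2 was 0. With identical junctions counted once, the described differences of the summed share were 1.20 points (CTCF degron with IAA minus without), 1.28 (minus untreated parental), 0.660 (minus bone marrow) and 0.0785 (untreated CTCF degron minus parental). Segments called by limma with IAA changed in parental cells from 9 to 5 with median-of-ratios scaling and 2 with identical junctions once. In Ostir1-only cells they changed from 1 to 0 with a minimum mean of 1 junction, 0 with identical junctions once and 13 with the replicate block, and in CTCF-tag-only cells from 0 to 13 with the replicate block. In the Rad21 degron line they changed from 12 to 4 with median of ratios, 7 with a minimum mean of 1 and 19 with identical junctions once. The cause was not tested. The replicate block, as pairs, changed no call of the members' shares.

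Leaving out 1 replicate at a time, bone marrow minus Ostir1-only cells ran from 0.535 to 0.623 points of all and 1.69 to 1.84 points of VH junctions, and bone marrow minus CTCF-tag-only cells from 0.520 to 0.609 and 1.27 to 1.44, none past the threshold, since the smallest p is then larger. Segments called ran from 0 to 2 in Ostir1-only and 6 to 17 in Rad21 degron cells. Among junction features, the sign turned with identical junctions once for the members minus other V segments in frame (0.0762 points in CTCF degron cells with IAA, −0.178 in bone marrow), in frame without a stop in bone marrow (−0.385), and bone marrow minus CTCF degron cells for Ighv14-2 in frame without a stop (−1.56). It also turned without 1 replicate, for members minus other V segments, in frame (−0.824 to 0.125 in CTCF degron cells, −0.0761 to 3.07 in bone marrow), in insert (−0.0866 to 0.0937 and −0.105 to 0.398 nt) and in Ighd2 in bone marrow (−0.171 to 2.98). For bone marrow minus CTCF degron cells it turned in joints with no D match (−3.37 to 3.83 at Ighv14-1, −3.12 to 5.05 at Ighv14-2, −2.34 to 0.348 summed), Ighd1 at Ighv14-2-like (−3.66 to 2.56) and Ighd2 at Ighv14-2 (−3.78 to 7.88). None of these passed its test. Ratios to untreated parental cells, where each member has 8 junctions or fewer, are limited by counting and moved with single parental replicates. In the Rad21 degron line with IAA, 5 VH junctions in all limit what can be seen.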
